A study of Gallus gallus with 6 samples.

Results

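CASZ1 was the gene with the most differentially methylated regions (DMRs) between lens epithelial cells and lens fiber cells of the embryonic chick, and it is described here through the 53 DMRs that carry its symbol among the 7621 DMRs of the table. The members were selected on the number of DMRs, so the levels and changes below come from the comparison that chose the gene and are given as a description, with no test. DNA came from lenses of White Leghorn embryos at embryonic day 13, dissected into the front layer of epithelial cells and the core of fiber cells, with 3 biological replicates of 25 pooled lenses for each cell type and no treatment in either group. Whole genome bisulfite sequencing measured the mCG level, the share of reads in which a cytosine followed by a guanine (CG) was methylated. The levels are the authors' means over the 3 replicates of a group and the listed CG sites of a DMR. The table used here gives neither replicate values nor the coverage of a DMR, so no spread between replicates stands beside these levels. Neither cell type was checked against its marker genes here, because only methylation was analysed. The study's own RNA sequencing of such dissections reported crystallin and beaded filament genes of the lens among those that differed most between the cell types.

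CASZ1 encodes castor zinc finger 1, a DNA-binding transcription factor and the vertebrate counterpart of castor, which in Drosophila helps neural stem cells change the kind of neuron they produce over time. In the mouse retina CASZ1 acts in progenitors, where it sets which cell types are produced at which stage. It is also required for heart development and for the assembly of blood vessels, and it can work with the NuRD complex, which removes acetyl groups from histones and remodels nucleosomes. Methylation of CG sites near a start of transcription is generally tied to silencing, whereas methylation within the body of an active gene is common.

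All 53 CASZ1 DMRs had a higher mCG level in fiber cells and 0 had a lower one, beside 86.6% of all DMRs in the table with a higher level in fiber cells. Since the gene was selected in this same contrast, nothing is read from that count. Over the 53 DMRs epithelial cells had a median level of 22.3%, with a range of 1.99% to 80.7%, and fiber cells one of 44.6%, with a range of 7.24% to 92.8%. The change, fiber minus epithelial level, had a median of 20.01 percentage points and ran from 5.25 to 29.9 points. The listed gains thus began from starting levels that spanned nearly the full scale. The DMRs cover only part of the gene, and no level is given between them. The error of the change at 1 CG site, after the authors' smoothing over nearby sites, was approximated as the change over their area statistic per site. It lay between 1.14 and 4.61 points with a median of 3.25, and covers only what entered the authors' model. Regions were listed only where sites passed the authors' calling threshold, so an error small beside the change was fixed in advance.

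The DMRs were consecutive in the table and ran over 99.0 kb of chromosome 21, at chr21:3855618-3954652 of the galGal6 assembly. Together they covered 17.4 kb, which is 17.6% of that span, and held 1935 listed CG sites. No other gene was annotated to any of them. A promoter was annotated at the high-coordinate end of the span, so the gene is read towards lower coordinates, and distances below are counted from the outermost promoter DMR into the gene. Of the 53 DMRs, 44 overlapped introns only, 5 overlapped an exon and 4 overlapped a promoter, which the study placed just upstream of a transcription start site.

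Transcription factor motif matches show how the measured cytosines sit within sites that such factors can recognise. The study's supplementary list of motif matches, held here only in part, gave 12 separate sites in 9 of the CASZ1 DMRs. Of these, 7 held at least 1 CG and 5 held none. The sites with a CG are printed 5′ to 3′ on the strand named, in galGal6 coordinates, with each CG in capitals, since only those cytosines could enter the levels.
HES1, chr21:3874952-3874961, plus strand: CGcaCGCGcc
MXI1 and MYCN, chr21:3896210-3896222, minus strand: cctccaCGtggcc
RREB1, chr21:3896234-3896253, plus strand: cacccacccacccactgCGt
E2F6, chr21:3905693-3905703, plus strand: gggCGggaagt
RREB1, chr21:3906872-3906891, minus strand: acacaaaccaacccaCGagg
HEY1, HEY2, MXI1 and MYC, chr21:3933469-3933481, plus strand: gCGccaCGtgcca
MYC, chr21:3945551-3945562, minus strand: ccccaCGtgctt

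The letters CACGTG, which read the same on both strands and form the core of the E-box bound by MYC and its partners, occurred in 3 of these sites. The E-box at chr21:3896210-3896222 lay in an intronic DMR with 17.2% mCG in epithelial cells and 40.02% in fiber cells. The E-box at chr21:3933469-3933481 lay in a DMR with 10.4% and 35.3%, and that at chr21:3945551-3945562 in a DMR with 25.7% and 48.0%. All 3 DMRs gained between 22.3 and 25.0 points, and their epithelial levels lay on both sides of the CASZ1 median of 22.3%. The HES1 match, a site of a repressor downstream of Notch, lay in the exon DMR with the largest change of the gene. The 5 sites without a CG, matches to TCF12, SP1, SP2 at 2 places and HIC2, lay in DMRs with gains from 24.2 to 26.6 points. The study listed only enriched motifs, in gains of epithelial cell genes or losses of fiber cell genes. It defined these groups by RNA sequencing, so sites in gains were listed only for genes it called lower in fiber cells. Expression was not analysed here. Since all CASZ1 DMRs gained, a gain at each site was fixed in advance, with or without a CG. A match is a likeness of letters and not a bound site, and the level of the single CG within a match was not analysed here.

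**Figure D1:**
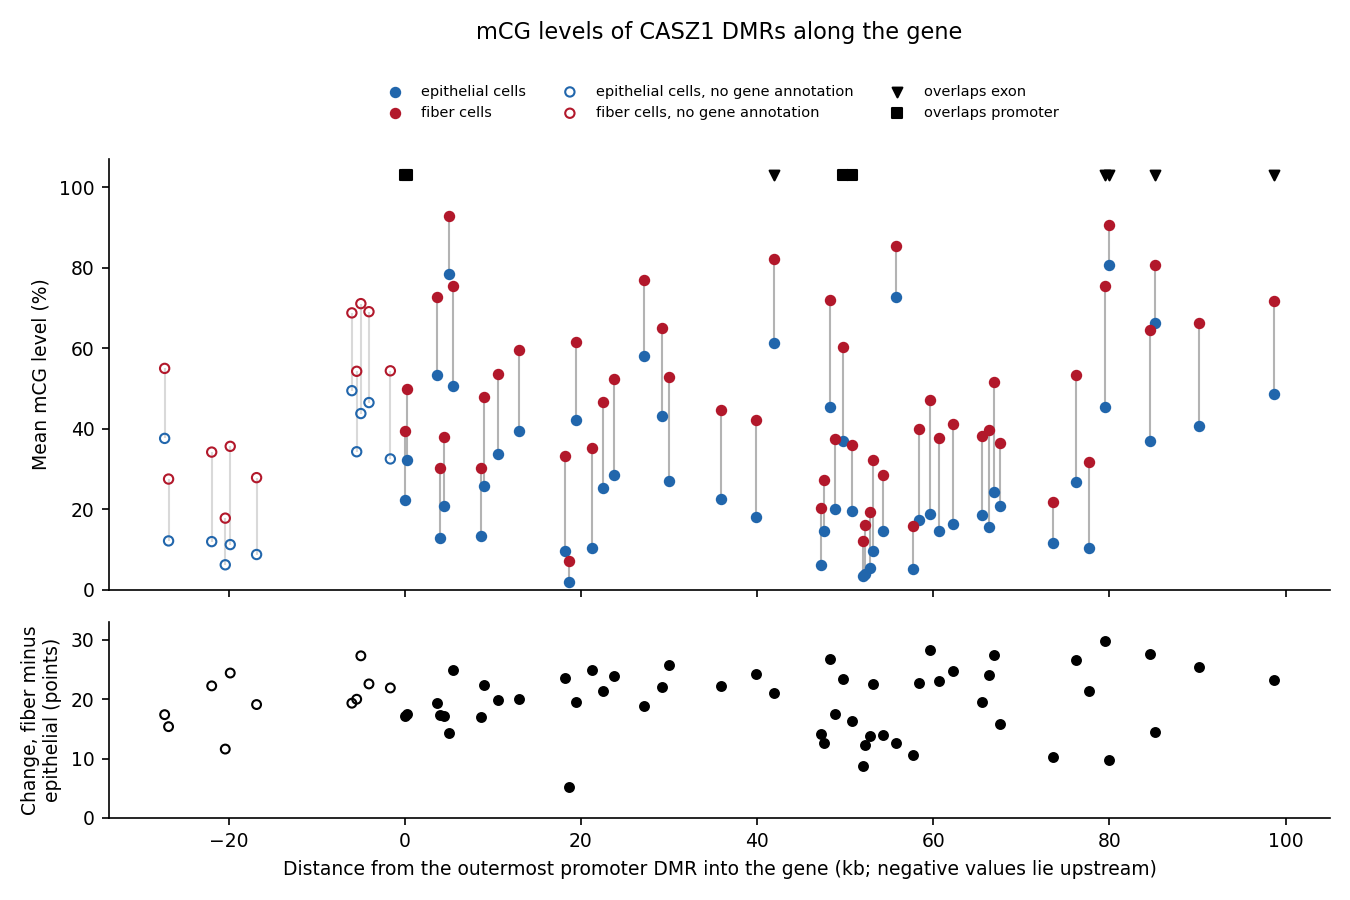
Mean mCG level (upper panel, percent) and change (lower panel, percentage points) of the 53 CASZ1 DMRs against distance from the outermost promoter DMR in kb. Blue points are epithelial cells, red points fiber cells, joined per DMR, open points the 11 upstream DMRs without gene annotation, and black marks DMRs that overlap an exon or promoter; every fiber point lies above its epithelial point, by 5.25 to 29.9 points in the gene.

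The promoter DMRs formed an outer and an inner pair. The outer pair lay at the start of the listed span and overlapped no other part of the gene. At chr21:3954469-3954652 epithelial cells had 22.3% mCG and fiber cells 39.5%, and at chr21:3954104-3954411 they had 32.3% and 49.9%. The outer pair thus gained nearly equal amounts, 17.2 and 17.6 points. The inner pair, annotated both as promoter and as intron, lay 49.7 and 50.8 kb into the gene, so it belongs to the promoter of a shorter annotated transcript. At chr21:3903692-3903823 epithelial cells had 19.7% and fiber cells 35.9%. At chr21:3904544-3905124, which also overlapped a repeat, they had 37.02% and 60.4%, a gain of 23.4 points against 16.3 at its neighbour. Gains were thus recorded at the outer and the inner promoter, and in fiber cells only the repeat-bearing DMR was above 50%. A promoter without a DMR would not be seen here, so CASZ1 may have others.

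Exon DMRs were among the most methylated in both cell types. Their epithelial levels ran from 45.5% to 80.7% with a median of 61.2%, and their fiber levels from 71.8% to 90.5% with a median of 80.7%. The 44 intronic DMRs had medians of 19.4% and 40.6%. The change did not separate the classes in the same way, with a median of 21.1 points in exon DMRs, 20.7 in intronic DMRs and 17.4 in promoter DMRs. Exon DMRs were also the more methylated ones among all gains of the table, where those that overlapped an exon had a median epithelial level of 36.8% and those that overlapped only introns 24.6%. With 5 exon and 4 promoter DMRs, these medians rest on few regions.

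Neighbouring exon DMRs could differ widely. The DMR at chr21:3874858-3875185, which holds the HES1 match, had the largest change of the gene, from 45.5% in epithelial cells to 75.4% in fiber cells. Only 167 bp away, the DMR at chr21:3874565-3874690 went from 80.7%, the highest epithelial level of the gene, to 90.5%, a change of 9.81 points. The DMR at chr21:3869291-3869535 went from 66.2% to 80.7%. The exon DMR at chr21:3912473-3912804, which also overlapped a 5′ UTR, went from 61.2% to 82.3%. The DMR farthest into the gene, at chr21:3855618-3856054 and 98.7 kb from the outer promoter, went from 48.5% to 71.8%. All 5 thus ended above 70% in fiber cells, a cut that lies just below the lowest of them. Only 6 of the other 48 CASZ1 DMRs also ended above it.

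Introns held both the lowest and, in fiber cells, the highest levels of the gene. The lowest was at chr21:3935876-3936044, with 1.99% in epithelial cells and 7.24% in fiber cells, and its gain of 5.25 points was also the smallest of CASZ1. On its sides lay chr21:3934993-3935229, with 42.1% and 61.6%, and chr21:3936172-3936574, with 9.62% and 33.1%. The nearly unmethylated region thus sat 127 bp from one that gained 23.5 points. The highest fiber level, 92.8%, was at chr21:3949413-3949609, where epithelial cells already had 78.6%. A similar contrast was seen between chr21:3896682-3897067, with 5.14% and 15.8%, and chr21:3898702-3898919, with 72.8% and 85.3%. In each of these pairs the epithelial order of the DMRs was kept in fiber cells. Where 1.99% lay beside 42.1% and 5.14% beside 72.8%, it could not reverse, because all changes were gains of at most 29.9 points.

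The middle of the gene had low median levels, although the lowest single level, given above, lay outside it. When DMRs were grouped wherever more than 4 kb separated them, a distance chosen after the values were seen, they fell into 8 stretches, of which the fullest held 21 DMRs in 20.5 kb around the inner promoter, at chr21:3886878-3907411. Its median was 16.4% for epithelial and 37.5% for fiber cells, with a median change of 17.5 points, and its epithelial levels ran up to 72.8%. Within it, 3 adjacent DMRs between chr21:3901565 and chr21:3902604 had epithelial levels from 3.44% to 5.44% and fiber levels from 12.2% to 19.3%. These were the lowest consecutive levels of the gene and lay between 52.1 and 52.8 kb into it, just downstream of the inner promoter DMRs. The stretch at the outer promoter held 11 DMRs with medians of 32.3% and 49.9%. Over the whole gene, position and epithelial level showed no steady trend (Pearson r = 0.0172, Spearman rho = -0.0210, n = 53 DMRs of the same libraries, as a description). These measures would not show low levels confined to the middle.

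The spacing of the DMRs was close. Between neighbours the median gap was 0.719 kb, the largest was 8.07 kb, and 28 of the 52 gaps were under 1 kb. Epithelial levels of neighbours under 1 kb apart differed by a median of 11.04 points, those of the 24 more distant neighbours by 18.7 points, and those of all 1378 pairs of CASZ1 DMRs by 17.3 points. Changes differed by a median of 5.45 points between neighbours under 1 kb apart, 4.31 points between more distant neighbours and 5.52 points between all pairs. The closer neighbours were thus more alike in starting level than the more distant neighbours. In change they differed about as much as all pairs did, and no spread stands beside these medians. The authors' smoothing across sites can make close regions alike, and its part in these values was not tested.

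**Figure D2:**
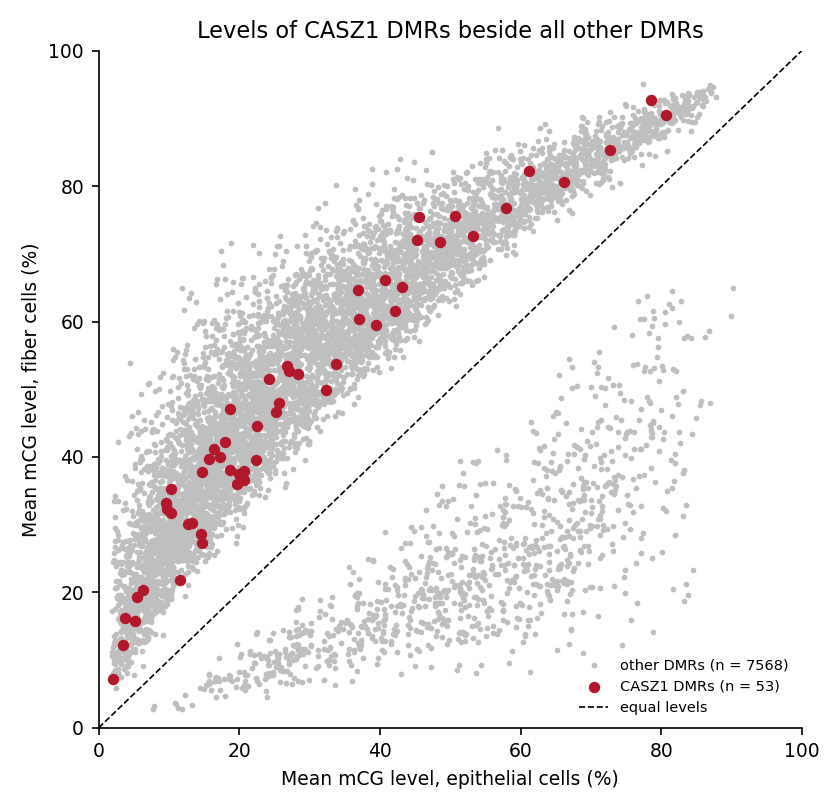
Mean mCG level in fiber cells against that in epithelial cells, both in percent, for the 53 CASZ1 DMRs (red) and the 7568 other DMRs (grey), with a dashed line at equal levels. CASZ1 lies wholly above the line, and its points follow the band of gains from 1.99% to 80.7% epithelial mCG.

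CASZ1 gains were moderate in size. A change of more than 30 points was found in 0 of the 53 DMRs and in 1026 of the 6602 gains of the table, or 15.5%. Changes of 15 to 30 points made up 75.5% of CASZ1 DMRs and 66.3% of all gains, and 3 CASZ1 DMRs changed by less than 10 points. The standard deviation of the change over regions was 5.67 points in CASZ1 and 7.79 points over all gains. The fiber level was at least 2 times the epithelial level in 20 of the 53. In epithelial cells 45 DMRs were below 50%, and in fiber cells 31 still were. Gain in CASZ1 was therefore mostly a shift within the low and middle range and seldom a step to full methylation.

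The median gain differed between classes of starting level. Calling set each change against its error, which was 1.14 points at the DMR with 1.99% epithelial mCG and 4.61 points at one with 36.9%. Smaller changes could thus be listed near 0%, and a high start leaves less room for a gain. How far this shaped the medians below was not tested. The 8 DMRs that started below 10% gained a median of 13.1 points, the 26 between 10% and 30% gained 21.8, the 11 between 30% and 50% gained 23.3, and the 8 above 50% gained 16.7. The corresponding medians over all gains were 16.4, 23.9, 23.6 and 16.4 points. In both sets the lowest and highest classes thus had smaller medians than the classes between. CASZ1 medians lay below those of all gains in the 3 lower classes, though only slightly in the third. The largest median was at 30% to 50% in CASZ1 and at 10% to 30% over all gains. Over single regions, starting level and change had Pearson r = 0.094 and Spearman rho = 0.254 in CASZ1. Over all gains the signs were opposite, with r = -0.219 and rho = -0.0995, so the likeness is only in the rise and fall of the class medians.

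CG density was measured as listed CG sites per 100 bp. Whether the cytosines of both strands were listed separately is not given in the sources used here, and the highest value in the table, 50.9, would leave almost no room for other bases if they were not, so densities are compared only with each other. CASZ1 DMRs had a median density of 11.9, from 5.26 to 25.0, and all DMRs 10.3. Their median length was 245 bp, from 110 to 834 bp, and that of all DMRs 236 bp. Denser CASZ1 DMRs gained less, with Pearson r = -0.61 and Spearman rho = -0.63 over the 53 regions (r = -0.61 without the 2 densities farthest from the median), beside r = -0.66 and rho = -0.71 over all gains. These are descriptions of regions that share libraries, smoothing and a calling threshold. With 25.0 sites per 100 bp the densest member, at chr21:3905541-3905764, holds the E2F6 match and went from 20.004% to 37.5%. The sparsest, at chr21:3892102-3892614 with 5.26 sites per 100 bp, went from 16.4% to 41.2%.

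**Figure D3:**
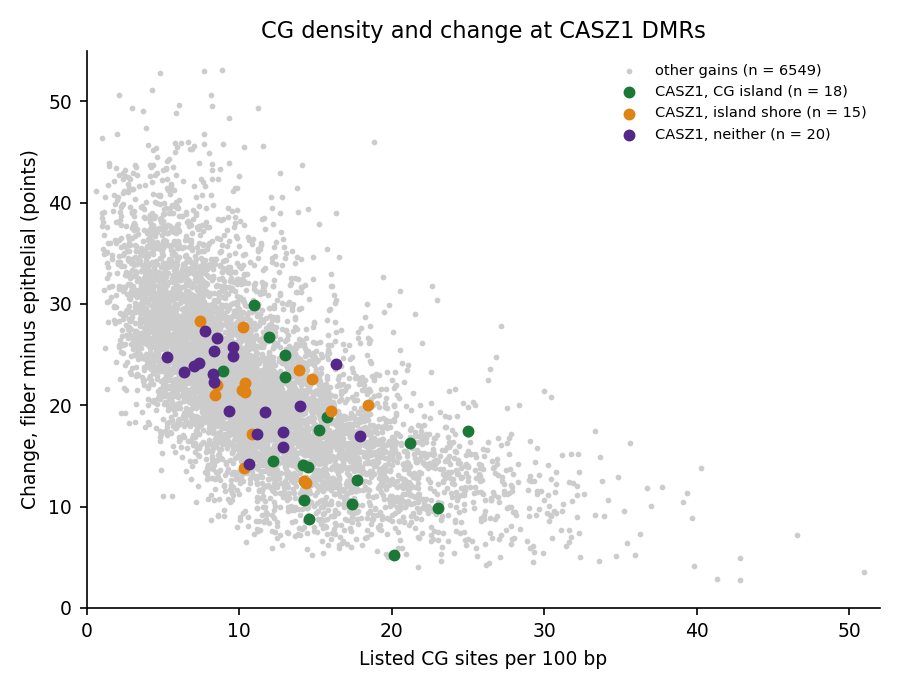
Change in mCG level (percentage points) against listed CG sites per 100 bp for CASZ1 DMRs in a CG island (green, n = 18), an island shore (orange, n = 15) or neither (purple, n = 20), with the other 6549 gains of the table in grey. CASZ1 DMRs slope downwards (Spearman rho = -0.63), and those outside islands and shores lie between 14.2 and 27.4 points.

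CG islands, stretches rich in CG that are often unmethylated, and their shores were annotated at 33 of the 53 CASZ1 DMRs, or 62.3%. Islands were overlapped by 18 and shores alone by 15. For comparison only chromosomes 7 to 22 could be used, because the table gave no island or shore at any of the 3657 DMRs of 17 other chromosomes, and on chromosome 23 none at the last 73 DMRs. Among the other 3178 DMRs of chromosomes 7 to 22 that overlapped a promoter or gene body, 41.9% were in an island or shore. On chromosome 21 alone this was 63 of 150, or 42%. The CASZ1 share of 62.3% is set beside these shares as a description, since neighbouring DMRs can share an island.

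Within CASZ1 the change was smallest in islands, with a median of 15.4 points, and was 21.3 points in shores and 23.2 points in neither. The median density fell in the same order, from 14.5 in islands to 10.4 in shores and 9.45 in neither. Other gains of chromosomes 7 to 22 had median changes of 15.97, 21.3 and 24.5 points in the same classes. The order within CASZ1 was thus also that of the other gains pooled over these chromosomes. Exon overlap was listed at 9.43% of CASZ1 DMRs and 25.7% of all DMRs, and promoter overlap at 7.55% and 13.7%. Repeats were overlapped by 2 CASZ1 DMRs.

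Beyond the outer promoter the gains continued. The next 11 DMRs upstream had no gene annotation and lay at chr21:3956131-3981954, starting 1478 bp from the last CASZ1 DMR, with 4 in islands and 7 in shores. All 11 were higher in fiber cells, beside 93.4% gains among all 243 DMRs of chromosome 21. Epithelial levels of these 11 DMRs ran from 6.21% to 49.5% and changes from 11.6 to 27.3 points. Their median change of 19.99 points was close to that within the gene. DMRs outside genes appear in the table only where an island, shore or repeat was annotated, as for all 700 of them, so others may be missing here. In all, 93 consecutive DMRs with gains, which span 1184 kb at chr21:3791282-4975176, held CASZ1. This run was picked because it holds CASZ1, and with gains so frequent on the chromosome nothing is read from its length.

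The neighbouring genes with DMRs held few of them. Since CASZ1 was selected as the gene with most DMRs, fewer in its neighbours was fixed in advance and nothing is read from it. PEX14, which encodes a docking protein for import into peroxisomes, had 1 DMR, which went from 5.96% to 37.8%. It lay at lower coordinates, 63.7 kb from the CASZ1 DMR farthest into the gene. Farther on the same side, KIF1B, a kinesin motor gene, had 2 DMRs with losses, from 69.9% to 29.5% and from 70.2% to 43.8%. On the other side PLEKHM2, a lysosome transport gene, had 2 gains, from 48.6% to 69.5% and from 69.6% to 83.0%, at 266 kb. The losses of KIF1B lay about 171 kb from CASZ1, outside the run of gains. CASZ1 made up 21.8% of the 243 DMRs of chromosome 21, and of the other 190, 174 were gains and 16 were losses. Gains were thus frequent on the chromosome also without CASZ1, at 91.6%.

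Counted by gene, CASZ1 stood just ahead of FOXP1. FOXP1, a forkhead transcription factor gene, had 49 DMRs, and MACF1, which encodes a protein that links actin and microtubules, and cNFI-A, a nuclear factor I gene, had 34 each. All of the FOXP1 and MACF1 DMRs were gains, whereas cNFI-A had 31 gains and 3 losses. Among the 2939 gene symbols listed, 1789 had a single DMR, and of the 57 with at least 10 DMRs 34 had gains only. Per 100 kb of the span its DMRs covered, CASZ1 had 53.5 DMRs and FOXP1 26.5. Among the 57 genes with at least 10 DMRs, CXXC5, with 83.3, and CD81, with 57.8, were ahead of CASZ1 by this measure, which was not compared over genes with fewer DMRs. The first place also changed when DMRs less than 1 kb apart were joined, which left 25 regions in CASZ1 and 33 in FOXP1, and when a change of at least 20 points was required, which left 27 and 34.

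**Figure D4:**
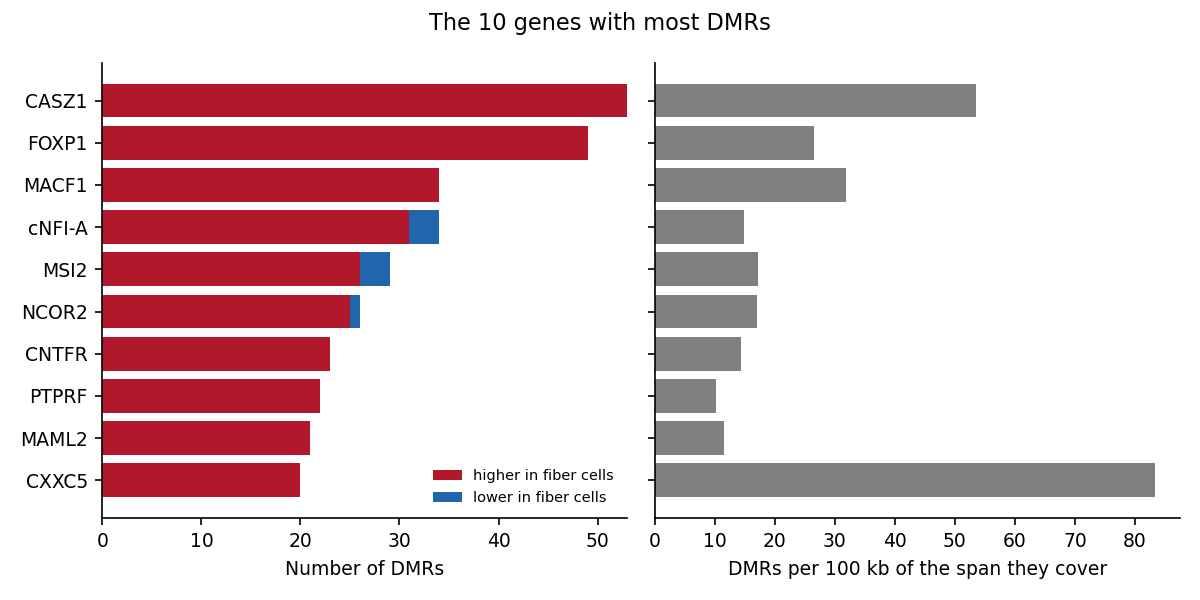
Number of DMRs (left, bars from 0, red for DMRs higher and blue for DMRs lower in fiber cells) and DMRs per 100 kb of the span they cover (right) for the 10 genes with most DMRs. CASZ1 has 53 DMRs and FOXP1 49, while per 100 kb CXXC5 reaches 83.3 and CASZ1 53.5.

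The genes with at least 10 DMRs whose median levels lay nearest to those of CASZ1 were ZNF423, GRK3 and FNDC3B, each with 10 DMRs. The likeness was the distance between the pairs of epithelial and fiber medians. ZNF423, another zinc finger transcription factor gene, had medians of 21.4% and 43.6%, at a distance of 1.42 points. GRK3, a receptor kinase gene, had 21.1% and 46.1%, and FNDC3B, which encodes a fibronectin type III domain protein, 20.1% and 45.4%. ZNF423 and GRK3 had gains only, and FNDC3B had 9 gains and 1 loss. These genes were picked for their similar levels, so the likeness restates the selection and is not a result. Their median changes were 19.8 points in ZNF423, 20.9 in GRK3 and 25.8 in FNDC3B, beside 20.0 in CASZ1.

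Genes tied to CASZ1 in other species were looked up in 3 lists. As a background for the counts, 2738 of the 14357 named protein-coding genes in the RefSeq table of the GRCg7b assembly, or 19.1%, had a DMR under the same symbol. That table held 25 of the 27 listed genes, and longer genes have more room for a DMR, so the shares are set side by side as a description. Of 14 genes of the NuRD complex 5 had a DMR, and their 11 DMRs were all gains, beside 86.6% gains over all DMRs. Their median change was 20.8 points, beside 21.4 points over all gains and 19.9 points over all DMRs with losses included. MBD3, a subunit of the methyl-CpG binding protein family, had the largest change of these 11 DMRs, in an intron, from 15.1% to 58.6%. HDAC1, a histone deacetylase of the complex, had a single promoter DMR that went from 28.0% to 51.2%. MTA1 had 3 gains and GATAD2B 5, from 14.8 to 30.1 points, and GATAD2A had 1, of 20.6 points. CHD4, MBD2 and RBBP4 were among the 9 without one. The subunits with a DMR thus included a deacetylase, a methyl-CpG binding family member and scaffold proteins.

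Of 9 temporal patterning factors of neural and retinal progenitors, among them the Ikaros family, 4 had a DMR, beside the 19.1% of named genes. IKZF2 and IKZF4 had 1 gain each, of 27.0 and 14.8 points, and POU2F1 had 2, of 12.6 and 21.1 points. NR2F2, a nuclear receptor gene, had both directions, with a promoter gain from 22.3% to 41.8% and 4 losses in its gene body. The largest of these losses went from 53.6% to 8.10%. NR2F2 was thus the single gene of the 3 lists with losses. Of 4 genes of heart and vessel development that are partners or targets of CASZ1, TBX5 had 1 gain, from 66.2% to 81.7%, in an exon and 3′ UTR. Over all 27 listed genes 10 had a DMR, again beside 19.1%, with 17 gains and 4 losses and a median change of 19.5 points, beside 86.6% gains and 19.9 points over all DMRs.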

How the data were processed

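Reads of 3 epithelial and 3 fiber replicates were processed by the authors with CASAVA, Trimmomatic and Bismark on galGal6, and DMRs were called with DSS, which smooths over sites and fits a beta-binomial model (versions are not given in the sources used here). For each DMR the authors deposited mean mCG levels of each cell type as a fraction, pooled over replicates, and an area statistic, a score that sums the test statistic over sites. Other deposited columns give position, length, number of CG sites and annotations. A deposited difference holds the authors' comparison and was used only to check the change computed here (largest gap 1e-07 points). The table gives no coverage, so no level has a counting interval.

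The 13180 lines were joined to 7621 distinct DMRs. Levels were turned into percent and changes computed as fiber minus epithelial level. Members, gene lists and stretches were chosen with earlier results of these data known. The named genes are CASZ1, the 3 others with most DMRs, the 3 nearest in median levels among those with at least 10 DMRs, the nearest gene with DMRs on each side, and listed genes with a DMR; KIF1B, CXXC5 and CD81 were named after their values were seen. No test was run, since the table used holds only pooled levels and the gene was selected on the same contrast. A reference gene table of another assembly gave only gene order and gene symbols, and motif sequences came from the study's supplementary list, of which only part was used. Alternatives were a match by gene identifier, promoter and gene body annotations only, a minimum change, a minimum area statistic, no repeats, joining of close DMRs, means weighted by sites and, added after seeing the data, the upstream DMRs. Calculations used Python 3.11.15, NumPy 2.4.6, pandas 2.3.3, SciPy 1.17.1 and matplotlib 3.10.9, and scripts were tested on simulated data.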

Additional observations from a re-analysis of the deposited data

How the results depend on the processing

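Over 51 recomputed values of 7 results, 45 stayed within the limit set for them and 6 moved. The limit was wide. Numbers of 39 and 64 DMRs beside 53 counted as within it, as did a median fiber level of 51.5% beside 44.6%. All CASZ1 DMRs were gains under each alternative in which direction was counted. This could not come out otherwise, because these alternatives kept or joined DMRs that were all gains. The values for direction are among the 45 and say nothing about robustness. A match by gene identifier and the restriction to promoter and gene body annotations each kept the same 53 DMRs. The number and medians of CASZ1 could not change under them. These values are also among the 45 and say nothing about robustness either. Joining DMRs less than 1 kb apart left 25 regions, and a minimum change of 20 points left 27, and CASZ1 then ranked 2 among genes, behind FOXP1. The minimum change also moved the median change to 23.9 points and the median density to 9.56 sites per 100 bp, which follows from leaving out the smaller changes. The number was 39 with the area statistic at or above its median, 51 without repeats and 64 with the upstream DMRs, an alternative chosen after seeing the data. No paired analysis was possible because the table used holds only pooled levels of each cell type, and for the same reason no replicate could be left out. The table gives no coverage of sites, so regions where coverage was too low to call a DMR cannot be told from regions that did not differ.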

Other observations

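The island annotation of the table was uneven. Of 34 chromosomes 17 had no DMR in an island or shore, and on chromosome 23 the last such entry ended at chr23:4977352, with 73 DMRs after it. CASZ1, on chromosome 21, lies in the annotated part. MACF1, on chromosome 23 at chr23:5494970-5601655, lies beyond it, and none of its 34 DMRs carried an island or shore label, although its median density of 14.3 listed CG sites per 100 bp was above the 11.9 of CASZ1. Shares of islands over the whole table are therefore not comparable with those of single genes.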
